A study of Mus musculus with 3 samples.

Results

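Hox genes were measured in cells sorted from fetal mouse kidneys for green fluorescence of a Meis1 reporter. Members were all probe sets whose platform annotation gave a single symbol among the 39 mouse Hox genes. That rule found 48 of 34945 single-symbol probe sets and 33 of 18193 genes. Hoxb8 and Hoxd4 were represented only by probe sets shared with a neighbouring Hox gene, and the other 4 were not analysed here.

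The samples formed 1 group of 3 arrays. Each array held RNA from about 20 pooled kidneys at E15.5, late in gestation (Theiler stage 23). Embryos were of the CD-1 strain, of unknown sex, and carried the transgene Tg(Meis1-EGFP)FO156Gsat, in which Meis1 control elements drive enhanced green fluorescent protein. Only fluorescent cells were profiled, so the population is whatever expressed that transgene, and the labels name it both peripheral blastema and nephrogenic interstitium. There was no second group, so detection over background was assessed for each Hox gene.

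Hox genes encode homeodomain transcription factors that give cells a position along the body axis. They lie in 4 clusters, a to d, on mouse chromosomes 6, 11, 15 and 2, and genes with the same number in different clusters are paralogues descended from 1 ancestral gene. Low-numbered genes act from the hindbrain and neck downwards and high-numbered genes act in the trunk, tail and distal limb. In the kidney, paralogue group 11 is required for the metanephros to form and group 10 acts in the cortical stroma. Many Hox proteins bind DNA together with Pbx and Meis partners, which belong to the TALE class of homeodomain proteins.

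Background was set on each array by chemosensory receptor genes, which are made in sensory neurons. Among 72 such genes the 95th percentile of log2 signal was the level, a signal of 135, 185 and 168 in replicates 1, 2 and 3, against median signals of 143 to 187 over all probe sets. A gene was called above background when its log2 signal minus that level passed a one-sided limma test at an adjusted p below 0.05. Distances are given below in log2 units with the moderated standard error of limma (SE, n = 3). That SE draws the variance of each gene towards that of all genes, so it can differ from the plain spread of the 3 arrays. Of the markers listed for nephrogenic interstitium, 10 of 10 were above background, where 57.3% of all genes were. Among them was Foxd1, the transcription factor of cortical stromal progenitors, at 7.47 ± 0.21. The 10 include Meis1, whose reporter selected the cells, so its detection is not a finding. All marker lists were chosen with earlier results of these data known, so this count is no independent evidence of cell identity. Of genes restricted to other tissues, 5 of 44 were above as well (11.4%): Oxt, a hypothalamic hormone, at 3.02, Lor, a skin protein, at 1.89, Hcrt at 1.03, Prm1 at 0.63 and Pomc at 0.55. Hox genes at such distances therefore lie in a range that these genes also reached. Markers listed for cap mesenchyme were above in 6 of 8 cases. Gdnf at 7.37, Sall1 at 6.12, Itga8 at 5.47, Eya1 at 3.47, Meox1 at 2.59 and Six2 at 1.86 were, and Cited1 at -4.20 and Osr1 at -3.13 were not. For ureteric bud 4 of 8 were (Epcam at 4.13, Krt18 at 2.19, Wnt11 at 2.06 and Calb1 at 1.64 were, Ret at -0.34, Wnt9b at -0.13, Krt8 at -0.25 and Cdh1 at -0.79 were not). The counts were 2 of 6 for early nephron, 4 of 6 for endothelium, 2 of 4 for ureter mesenchyme, 3 of 5 for neural cells and 1 of 5 for blood. Some marker genes above background had only part of their probe sets above. These were 2 of 3 for Meis1, 1 of 3 for Eya1, 1 of 2 for Sall1 and 1 of 4 for Calb1. Whether these marker signals came from the labelled cells or from others was not tested, nor was the part of such cells in the Hox signals. Labelled RNA was rich in 3' ends, with the 3' control probe set of Gapdh 5.00 to 5.39 and that of Actb 3.04 to 3.40 log2 units above the 5' one.

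Of the 33 Hox genes, 21 were above background (63.6%) and 12 were not, where 57.3% of all genes were above. The share is close to that of all genes and is not a result about the family. The median distance was 1.56 log2 units for Hox genes and 1.52 for all genes. By cluster, 6 of 9 genes of the a cluster, 4 of 9 of the b cluster, 6 of 7 of the c cluster and 5 of 8 of the d cluster were above background. By position, 13 of 19 genes of paralogue groups 1 to 8, 7 of 9 of groups 9 to 11 and 1 of 5 of groups 12 and 13 were. Without replicate 1 the last count was 0, where 56.1% of all genes were above background. Over other settings the count of the family ran from 14 to 23. It was 23 at the 90th percentile of the receptor genes (60.5% of all genes), 18 at the 99th (52.9%) and 14 with a level from genes restricted to other tissues (47.1%). It was 23 for genes above the level on each array with no test (59.2%), and 19 with the mean over probe sets (47.9%). The lowest probe set of each gene gave 16 (30.6% of all genes). Leaving out the dim genes gave 17 of 17 measured, but 100% of all genes kept were above, so that setting cannot show a lost call. In pooled cells a low signal from few cells, a low level per cell and a probe set that reads poorly cannot be told apart.

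**Figure D1:**
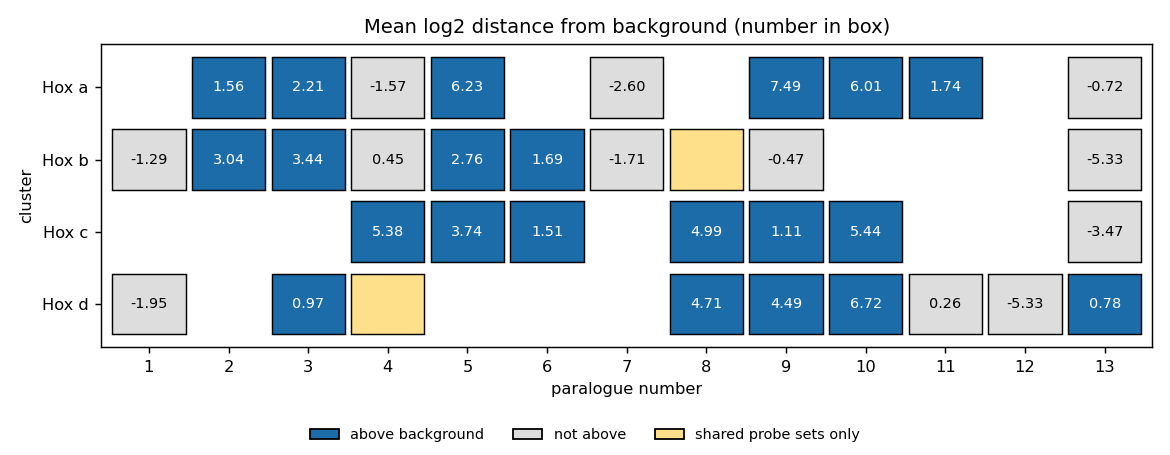
Each box is a Hox gene, placed by cluster (rows) and paralogue number (columns), with its mean log2 distance from background over 3 arrays. Blue boxes passed the test, grey boxes did not, and yellow boxes have only shared probe sets. Groups 2, 3, 5, 6, 8 and 10 are blue in every cluster with a value, and groups 1, 7 and 12 in none. Each of these groups has only 1 to 3 values.

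Every measured gene of groups 2, 3, 5, 6, 8 and 10 was above background, and no measured gene of groups 1, 7 and 12 was. These groups held only 1 to 3 measured genes each, where 57.3% of all genes were above. A pattern by paralogue group was not tested. With the level from genes restricted to other tissues, Hoxa2, Hoxd3, Hoxb6 and Hoxc6 were no longer above. Groups 4, 9, 11 and 13 held genes on both sides. Along the a cluster, Hoxa2, Hoxa3, Hoxa5, Hoxa9, Hoxa10 and Hoxa11 were above background, and Hoxa4, Hoxa7 and Hoxa13 were not. In the c cluster, all 6 genes from Hoxc4 to Hoxc10 with a value were above background, and Hoxc13 was not.

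**Figure D2:**
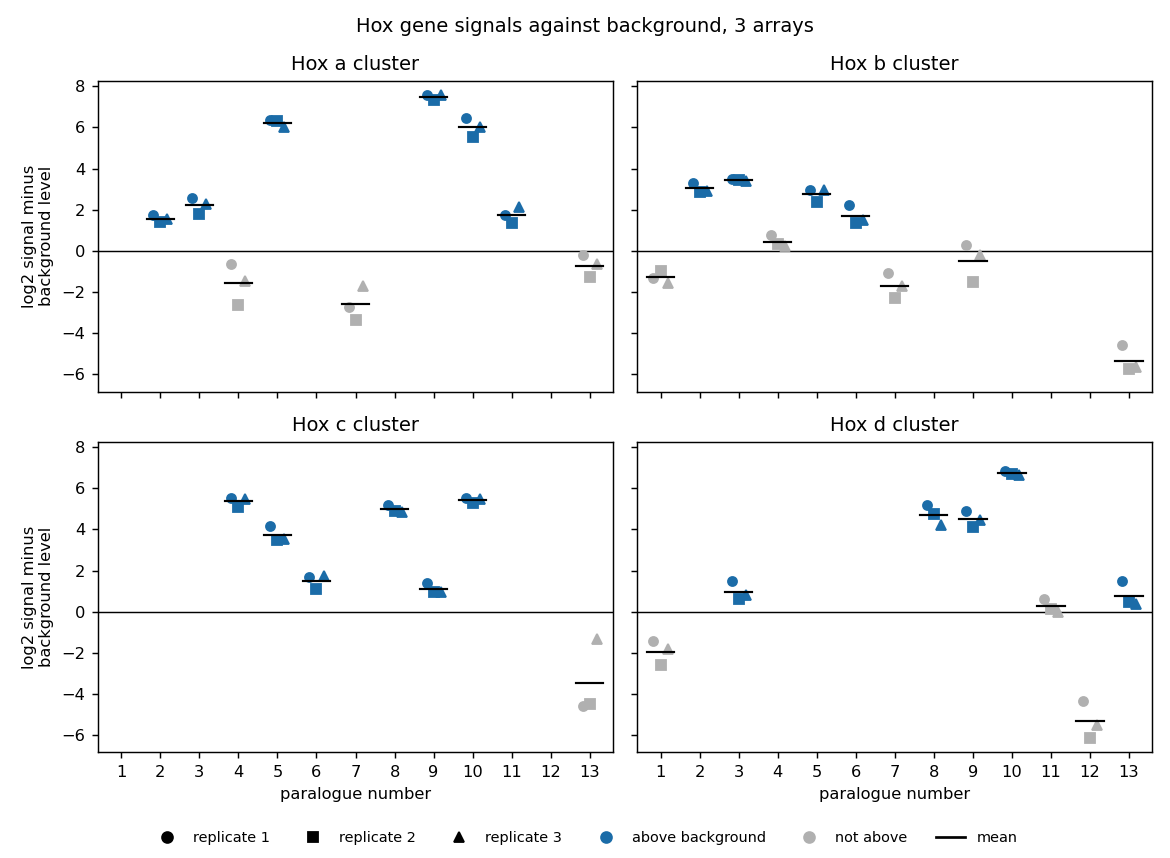
Log2 signal minus the background level of the same array (vertical axis) for each Hox gene by paralogue number (horizontal axis), with 1 panel per cluster. Symbols are the 3 arrays, bars are their means, blue marks genes above background and grey marks the others, with 0 the background level. Hoxa9, Hoxd10 and Hoxa5 lie more than 6 units above the level on each array, and Hoxb13 and Hoxd12 lie more than 4 units below it.

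The group 10 genes, which act in the cortical stroma of the kidney, were all above background. Hoxa10 had signals of 11931, 8682 and 10900 in replicates 1, 2 and 3 and lay 6.01 ± 0.25 log2 units above background (limma adjusted p = 1.41e-06). Hoxc10 had signals of 6270, 7336 and 7477 and lay 5.44 ± 0.20 above (adjusted p = 1.01e-06). Hoxd10 had signals of 15282, 19218 and 16868 and lay 6.72 ± 0.20 above (adjusted p = 7.78e-07). For all 3 genes every array was far above its background level. By signal, the lowest array was replicate 2 for Hoxa10 and replicate 1 for Hoxc10 and Hoxd10. By distance from the level, it was replicate 2 for Hoxa10 and Hoxc10 and replicate 3 for Hoxd10. Hoxc10 and Hoxd10 were each read by 1 probe set, while both probe sets of Hoxa10 passed, the other at 2.96.

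Group 11, which is needed for the metanephros to form, gave a divided picture with 2 of its genes measured. Hoxa11 had signals of 449, 478 and 736 and lay 1.74 ± 0.24 log2 units above background (limma adjusted p = 0.000352). Hoxd11 had signals of 211, 201 and 170 and lay at 0.26 ± 0.23 (adjusted p = 0.251). All 3 arrays of Hoxd11 were above their own level, but the margin was within the error of the test, and replicate 3 stood at 170 against a level of 168. Hoxa11 was highest in replicate 3, and no array came near background. With the background set at the 90th percentile of the receptor genes, Hoxd11 passed (0.61, limma adjusted p = 0.0329, with 0.0329 to 1.00 over all alternatives). With a level from genes restricted to other tissues, Hoxa11 did not (0.68, limma adjusted p = 0.0952, the highest over its alternatives). The lowest limma adjusted p, 3.15e-20, came from leaving out the dim genes. The Hoxa11 distance and arrays were unchanged there, so that value is no added evidence. The difference between the pair was not tested, since probe sets of different genes differ in affinity.

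Group 9, whose genes pattern the lower trunk and the proximal limb, was above background in 3 of its 4 genes. Hoxa9, also known for its part in blood stem cells, had signals of 25395, 30001 and 32045 and lay 7.49 ± 0.20 log2 units above background (limma adjusted p = 7.78e-07). Hoxd9 had signals of 4028, 3219 and 3709 and lay 4.49 ± 0.24 above (adjusted p = 3.44e-06). Hoxc9, which marks thoracic motor neuron identity in the spinal cord, had signals of 358, 356 and 328 and lay 1.11 ± 0.22 above (adjusted p = 0.00224). The Hoxc9 signals were alike on the 3 arrays and each was above the level. Its call was lost at the 99th percentile of the receptor genes (0.62, adjusted p = 0.0513) and with the tissue-restricted level (0.041), and over all alternatives limma adjusted p ran from 3.66e-05 to 0.868. Hoxb9 had signals of 165, 64.0 and 148 and lay at -0.47 ± 0.37. It was above the level on replicate 1 only, and replicate 2 stood apart below the others. Without replicate 2 its distance was 0.053, still not above background.

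Groups 12 and 13, which pattern the distal limb, the genital tubercle and the tail end, were mostly not above background. Hoxd13 was the exception, with signals of 380, 254 and 222 and a distance of 0.78 ± 0.29 log2 units (limma adjusted p = 0.0306). Replicate 1 was the highest of its arrays, and without it the call was lost (0.43, limma adjusted p = 0.0566, with 0.00420 to 1.00 over all alternatives). A second Hoxd13 probe set read 3.32, 28.8 and 4.84, far below background on every array, so the 2 probe sets of this gene lay on opposite sides. Hoxa13, which like Hoxd13 shapes digits and genitalia, had signals of 116, 75.4 and 108 and lay at -0.72 ± 0.27. Hoxd12 read 6.63, 2.59 and 3.73 (-5.33 ± 0.37). Hoxb13, a gene of the tail and the prostate, read 5.67, 3.40 and 3.32 (-5.33 ± 0.30). Hoxc13, which controls hair keratins, read 5.65, 8.23 and 66.7 (-3.47 ± 0.65). The Hoxc13 arrays differed widely, with replicate 3 high, and all were below background.

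Among the anterior genes, groups 2 and 3 were above background and group 1 was not. Hoxb1, which marks a single segment of the hindbrain, read 54.7, 93.6 and 56.6 and lay at -1.29 ± 0.22 log2 units. Hoxd1 read 49.9, 31.2 and 47.3 (-1.95 ± 0.28). Neither came above the level on any array. Hoxa2, which specifies the second branchial arch, had signals of 445, 493 and 488 and lay 1.56 ± 0.20 above background (limma adjusted p = 0.000307). Hoxb2 had signals of 1343, 1346 and 1286 and lay 3.04 ± 0.21 above (adjusted p = 1.30e-05). Both genes gave closely matching signals on the 3 arrays. The Hoxa2 call was lost with the tissue-restricted level (0.49, limma adjusted p = 0.223, the highest over its alternatives). The lowest limma adjusted p, 1.60e-16, came from leaving out the dim genes, with the Hoxa2 distance and arrays unchanged.

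Group 3 genes are best known for the thymus, parathyroid and neck. Hoxa3 had signals of 804, 633 and 814 and lay 2.21 ± 0.24 log2 units above background (limma adjusted p = 0.000117). Hoxb3 had signals of 1502, 2049 and 1755 and lay 3.44 ± 0.20 above (adjusted p = 5.08e-06). Hoxd3 had signals of 376, 286 and 295 and lay 0.97 ± 0.25 above (adjusted p = 0.00760). On the probe sets used, all 3 genes exceeded the level on every array, with Hoxd3 nearest to it. Hoxa3 and Hoxb3 each had another probe set that was not above background (-0.66 and -0.025). Taking the 99th percentile of the receptor genes ended the Hoxd3 call (0.49, limma adjusted p = 0.125, with 0.000331 to 1.00 over all alternatives), and the gene lay below the tissue-restricted level (-0.094).

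Group 4 held a gene far above background beside 2 that did not pass. Hoxc4 had signals of 6288, 6327 and 7570 and lay 5.38 ± 0.21 log2 units above background (limma adjusted p = 1.24e-06). Hoxb4, studied for its effect on blood stem cell growth, had signals of 230, 230 and 201 and lay at 0.45 ± 0.22 (adjusted p = 0.0767). Each Hoxb4 array was above its level without the gene passing the test. It passed at the 90th percentile of the receptor genes (0.80, adjusted p = 0.0102) and with a level common to the arrays (adjusted p = 0.0143), with limma adjusted p from 0.0102 to 1.00 over all alternatives. Hoxa4 read 86.4, 30.2 and 61.6 and lay at -1.57 ± 0.39, below the level on every array for both of its probe sets.

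Groups 5 and 6, genes of the neck and upper trunk, were above background in each measured gene, read by its brightest probe set. Hoxa5, which is required for the lung and trachea, had signals of 10990, 14634 and 11013 and lay 6.23 ± 0.21 log2 units above (limma adjusted p = 8.06e-07). Its value came from a probe set of the _x_at kind, which may also bind related transcripts, and its other probe set read 1785, 1909 and 2610 and lay at 3.68. Hoxc6 and Hoxa4 were likewise read by _x_at probe sets, and Hoxa3 and Hoxd8 by _s_at ones, with the same limit. Without both kinds Hoxa3 lay at 1.80 and Hoxc6 at 1.02, still above background. Hoxb5 had signals of 1033, 944 and 1323 and lay 2.76 ± 0.23 above (adjusted p = 3.02e-05). Hoxc5 had signals of 2422, 2078 and 1986 and lay 3.74 ± 0.23 above (adjusted p = 7.39e-06). On the probe sets used, none of these arrays came close to the level. The other Hoxc5 probe sets lay at 0.67 and -3.91 and were not above background. Hoxb6 read 637, 470 and 473 (1.69 ± 0.26, adjusted p = 0.000621) and Hoxc6 read 432, 403 and 552 (1.51 ± 0.23, adjusted p = 0.000616). Replicate 1 was highest for Hoxb6 and replicate 3 for Hoxc6. Both calls were lost with the tissue-restricted level (0.63 and 0.44). Another Hoxc6 probe set, at 0.32, was not above background.

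Group 7 was not above background and group 8 was. Hoxb7, whose promoter is used to drive transgenes in the ureteric bud, read 63.9, 37.2 and 51.0 and lay at -1.71 ± 0.29 log2 units. Hoxa7 read 20.4, 17.8 and 51.6 and lay at -2.60 ± 0.35. Every array of both genes was below the level. Hoxc8, a gene of the thoracic trunk, had signals of 4855, 5579 and 4927 and lay 4.99 ± 0.21 above background (limma adjusted p = 1.36e-06). Hoxd8 had signals of 4888, 4920 and 3107 and lay 4.71 ± 0.26 above (adjusted p = 3.98e-06). Hoxd8 was lower in replicate 3, but its other probe set read 2933, 3039 and 2936 and showed no such drop.

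A gene above was read by its brightest probe set, so the other probe sets were examined. Of the 48 Hox probe sets, 28 were above background when tested among all probe sets (58.3%, where 48.7% of all probe sets were). With the tissue-restricted level 17 of the 48 were, where 37.4% of all probe sets were. There were 22 genes with 1 probe set and 11 with more. Of those 11, 4 genes had all probe sets above background (Hoxa5, Hoxa9, Hoxa10 and Hoxd8), 2 had none (Hoxa4 and Hoxb4) and 5 were split (45.5%). Across all 9010 genes with more than 1 probe set, 49.6% were split; the difference was not tested.

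**Figure D3:**
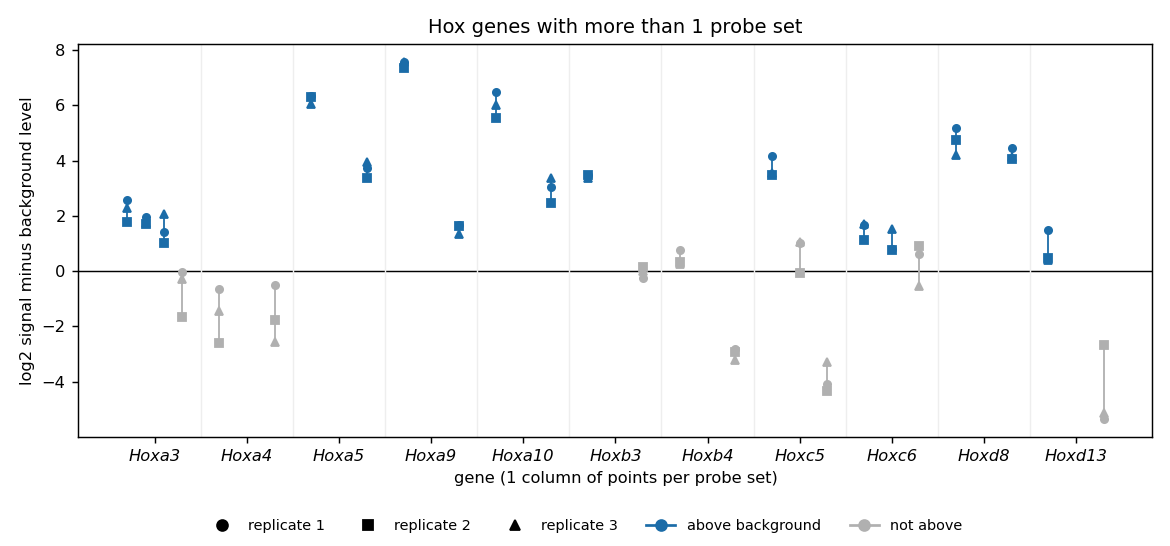
Log2 signal minus the background level (vertical axis) for every probe set of the 11 Hox genes with more than 1, where each column of 3 symbols is a probe set and the symbols are arrays. Blue probe sets passed the test among all probe sets and grey ones did not. Hoxa3, Hoxb3, Hoxc5, Hoxc6 and Hoxd13 hold both colours.

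Hoxa3 had 3 of 4 probe sets above background, at 2.21, 1.80 and 1.49 log2 units, and another at -0.66 ± 0.37 with signals of 131, 58.7 and 139. Hoxb3 had a second probe set at -0.025 ± 0.22, with signals of 114, 205 and 170. Hoxc5 had 1 probe set above background, 1 at 0.67 ± 0.30 (limma adjusted p = 0.0770) and 1 at -3.91 ± 0.28 with signals of 7.95, 9.17 and 17.1. The Hoxc5 mean over its probe sets was 0.17, not above background. Hoxc6 had 2 probe sets above, at 1.51 and 1.02, and 1 at 0.32 ± 0.34 with signals of 209, 343 and 115. The calls of Hoxb3, Hoxc5 and Hoxd13 therefore rest on a single probe set each. Hoxa9 had a second probe set with signals of 428, 566 and 430 that also passed, at 1.54 ± 0.21 (adjusted p = 0.000800).

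Calls depended on the setting for genes near the level and for genes with divided probe sets. Of 21 genes above background, 11 kept sign and call in each alternative run: Hoxa5, Hoxa9, Hoxa10, Hoxb2, Hoxb5, Hoxc4, Hoxc8, Hoxc10, Hoxd8, Hoxd9 and Hoxd10. Of 12 genes not above background, 9 did so and Hoxb4, Hoxb9 and Hoxd11 did not. Hoxb2, Hoxb5, Hoxc4, Hoxc8, Hoxc10, Hoxd9 and Hoxd10 have 1 probe set each. For them the mean over probe sets and the lowest probe set gave the same distance by construction. Among the 9 stable genes not above background, only Hoxa4 has more than 1 probe set, so the same limit holds there.

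**Figure D4:**
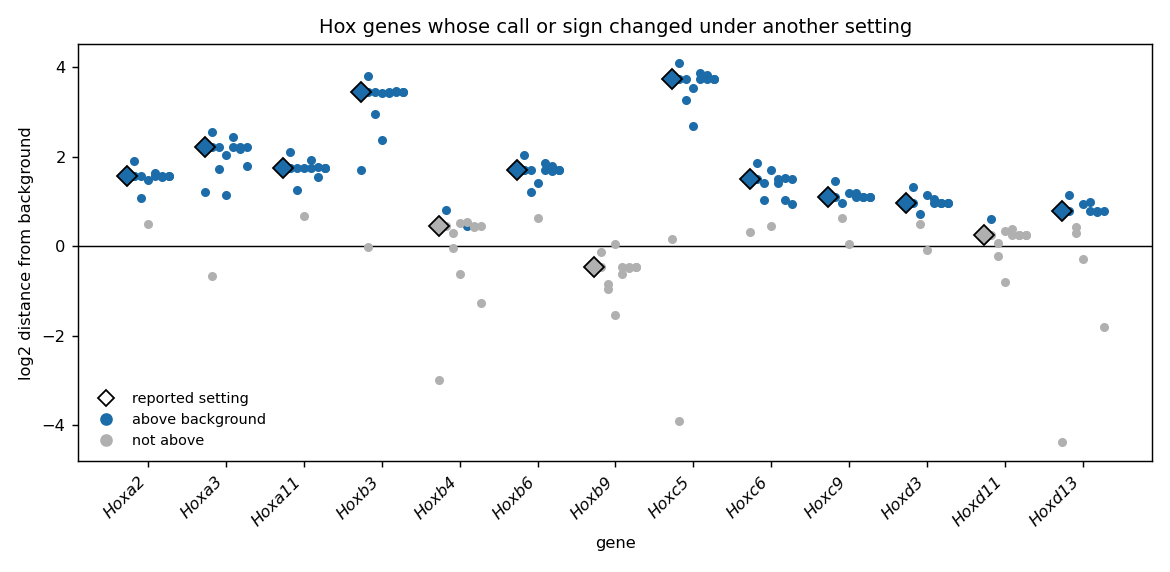
Log2 distance from background (vertical axis) of the 13 Hox genes whose call or sign changed under some alternative. The diamond is the value reported and each dot an alternative setting, blue where the gene was above background and grey where it was not. Hoxd13 ranges from 1.13 at the 90th percentile of the receptor genes to -4.38 with its lowest probe set.

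For Hox genes above background, the SD of the log2 signal over 3 arrays had a median of 0.21 and ran from 0.04 to 0.40, against a median of 0.16 for all 10432 genes above background. Hox genes not above background had a median SD of 0.44 against 0.56 for all such genes. By signal, each of the 3 arrays was the highest for 7 of the 21 Hox genes above background, and replicates 1, 2 and 3 were the lowest for 9, 7 and 5. By distance from the level, replicate 1, whose level was lowest, was the highest for 17 of the 21, replicate 3 for 4 and replicate 2 for 0.

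Partners of Hox proteins were above background in 5 of 8 measured cases (62.5%, where 57.3% of all genes were). Meis1, the gene of the reporter used in the sort, had signals of 18605, 18605 and 18247 and lay 6.84 ± 0.21 log2 units above, and Meis2 lay 7.60 ± 0.20 above. Pbx2 (6.16 ± 0.20), Pbx3 (5.65 ± 0.22) and Pknox2 (3.0 ± 0.22) were also above background. Meis3 (-0.62 ± 0.32), Pbx4 (-2.13 ± 0.35) and Pknox1 (-0.24 ± 0.55) were not. Cells were selected on the Meis1 reporter, so detection of Meis1 is not a finding. Pknox2 had 1 of its 2 probe sets above background and its mean over both was 0.047.

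Regulators of Hox clusters were above background in 12 of 19 cases (63.2%, against 57.3% of all genes), with a median distance of 2.52 log2 units against 1.52 for all genes. The caudal factors, which switch on Hox genes in the early embryo, were not above background: Cdx1 lay at -4.77 ± 0.28 and Cdx2 at -0.65 ± 0.31. Kmt2a, which keeps Hox genes active by methylating histone H3, lay 4.39 ± 0.20 above, and its partner Men1 1.45 ± 0.23. Ezh2 (6.79 ± 0.22) and Eed (6.94 ± 0.21), which belong to the Polycomb complex that silences Hox genes, were also above background. Eed had 1 of 2 probe sets above and Men1 2 of 3. Genes of the Hox11 network of the kidney were above in 7 of 9 measured cases (77.8%, against 57.3% of all genes). Eya1 (3.47 ± 0.27), a cofactor of that network, and its targets Six2 (1.86 ± 0.21) and Gdnf (7.37 ± 0.20) were above, as was the integrin Itga8 (5.47 ± 0.24). Eya1 had 1 of its 3 probe sets above background. Six2 lay in the range that genes restricted to other tissues also reached. Osr1 (-3.13 ± 0.37) and Ret (-0.34 ± 0.25) were not.

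**Figure D5:**
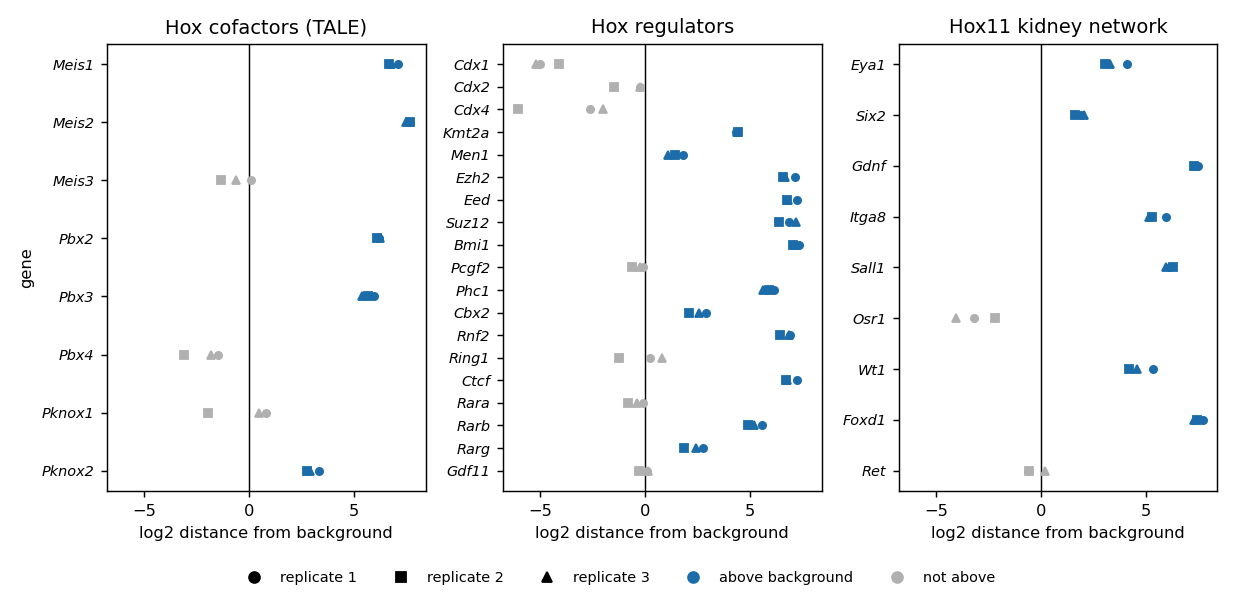
Log2 distance from background (horizontal axis) for each array (symbols) of Hox cofactors, Hox regulators and genes of the Hox11 kidney network. Blue genes were above background and grey genes were not: 5 of 8, 12 of 19 and 7 of 9 genes are blue.

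Transcripts within and beside the clusters were above background in 10 of 14 measured cases (71.4%, against 57.3% of all genes). Hoxa11os, transcribed from the strand opposite Hoxa11, had signals of 516, 615 and 881 and lay 2.02 ± 0.23 log2 units above (limma adjusted p = 0.000141). Both Hoxa11os and Hoxa11 were highest in replicate 3. Hoxb5os lay 2.70 ± 0.24 above with signals of 1182, 1111 and 875. Hoxd3os1 lay 5.65 ± 0.21 above with signals of 6209, 8360 and 10331. Hoxa11os and Hoxd3os1 each had a second probe set far below background, at -3.26 and -3.56.

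The even-skipped homologues at the ends of the a and d clusters, Evx1 (-0.93 ± 0.23) and Evx2 (0.022 ± 0.21), were not above background. Around the a cluster, Skap2 (5.99 ± 0.23) and Hibadh (6.59 ± 0.23) were above. Skap1 (-0.55 ± 0.27) and Ttll6 (-0.82 ± 0.25), around the b cluster, were not. Smug1 (3.74 ± 0.24), Cbx5 (5.46 ± 0.21) and Hnrnpa1 (7.34 ± 0.22), near the c cluster, and Mtx2 (5.33 ± 0.21) and Lnpk (3.25 ± 0.20), beside the d cluster, were above background. Of the other neighbours in RefSeq order, added after their values were seen, Snx11 beside the b cluster (1.09 ± 0.25), Snx10 beside the a cluster (1.67 ± 0.21) and Atp5g2 (4.26 ± 0.24) and Calcoco1 (1.60 ± 0.24) beside the c cluster were above, and Calcoco2 beside the b cluster (-3.44 ± 0.52) was not.

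Promoter sequences were searched for sites of the partner proteins, since the sort selected Meis1-driven fluorescence. RefSeq windows of 300 bases around the start (assembly GRCm38.p6) were found for 22 Hox genes, in 24 windows. The Meis site TGACAG occurred on either strand in 2 of the 24 (8.33%) and in 19.2% of all 32851 windows. The Pbx-Hox site TGATTNAT occurred in 2 (8.33%) against 3.22% of all windows, and the posterior Hox and Cdx site TTTATNG in 2 (8.33%) against 10.9%. A match describes letters and not binding. Hoxa2 held both a Meis and a Pbx-Hox match. The 3 windows with a Meis or Pbx-Hox match are shown because they carry those letters, with the match in capitals (read from the opposite strand it is CTGTCA or ATNAATCA). Hoxa2 (chr6:52164782-52165081, minus strand) and Hoxa3 (chr6:52213018-52213317, minus strand) were above background, and Hoxd11 (chr2:74682073-74682372, plus strand) was not.
Hoxa2: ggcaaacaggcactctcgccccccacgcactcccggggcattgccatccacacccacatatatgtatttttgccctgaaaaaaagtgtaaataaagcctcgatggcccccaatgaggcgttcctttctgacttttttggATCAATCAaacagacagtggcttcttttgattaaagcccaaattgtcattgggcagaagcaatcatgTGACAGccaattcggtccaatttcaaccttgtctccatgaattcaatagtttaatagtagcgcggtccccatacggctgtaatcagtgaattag
Hoxa3: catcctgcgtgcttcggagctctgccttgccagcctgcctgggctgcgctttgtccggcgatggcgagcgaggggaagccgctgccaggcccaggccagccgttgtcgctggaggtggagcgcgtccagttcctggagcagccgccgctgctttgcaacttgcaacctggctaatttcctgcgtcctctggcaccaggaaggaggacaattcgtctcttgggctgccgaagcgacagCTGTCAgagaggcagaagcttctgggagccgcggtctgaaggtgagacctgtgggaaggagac
Hoxd11: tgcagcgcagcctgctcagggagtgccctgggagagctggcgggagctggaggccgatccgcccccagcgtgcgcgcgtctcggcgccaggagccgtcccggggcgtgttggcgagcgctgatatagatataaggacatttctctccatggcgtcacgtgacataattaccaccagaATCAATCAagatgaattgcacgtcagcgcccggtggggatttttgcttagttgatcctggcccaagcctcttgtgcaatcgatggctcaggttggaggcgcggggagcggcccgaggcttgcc
Over the Hox windows the median ratio of observed to expected CpG was 0.626, against 0.384 over all windows. Values ran from 0.257 to 1.02.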

How the data were processed

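Kidneys were dissociated in trypsin for 5 min at 37 °C, passed through a 70 micron mesh and sorted for EGFP, and RNA was amplified in 2 rounds and labelled with biotin, per the labels' protocols. The values the authors deposited are linear array intensity per probe set, made with GCOS per the submitters' processing notes. Its version and signal algorithm were not given in the sources used here. Trimming 2% of values from both ends left a mean signal of 1500.01 on each array, so arrays had been scaled alike. All values were above 0 and log2 was taken without a pseudocount.

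Of 45101 probe sets, 64 were controls, 932 carried several symbols and 9160 none; these were left out. The probe set brightest on average (log2) stood for a gene. Distances from the level were fitted in limma 3.58.1 (R 4.3.3; lmFit with an intercept, eBayes, one-sided), and p-values were adjusted by Benjamini-Hochberg over 18193 genes, or 34945 probe sets. The script was tested on simulated data. Standard errors are the moderated ones from eBayes. They include the spread of the levels between arrays, and the number of arrays limits their precision. Separate litters are not stated, so p-values cover the spread between these samples alone, which may be technical.

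Every Hox gene is named; of other lists, all cofactors, cluster transcripts and flanking genes, and the first 4 members above background and first 2 not above it. In the regulator list the order of the text puts the latter first. Of the marker lists, cap mesenchyme and ureteric bud are given in full and the rest by counts; the 5 genes restricted to other tissues that were above background were named after their values were seen. The members and lists were chosen with earlier results of these data known. Alternatives changed the percentile, the genes and the sharing of the level, the normalization, a filter on dim genes, the call rule, the variance trend, the probe set used, and left out each replicate. The filter on dim genes and the variance trend left distances unchanged, so smaller p-values there add no evidence. Hox genes were not tested against each other, because probe sets differ in affinity. Each call still sets the probe set of a gene against those of receptor genes, so affinity bears on it as well. A gene that is not expressed and a probe set that reads poorly cannot be told apart. The planned comparison of Hox protein sequences was not run, and promoter windows were used instead, a choice made after the reference files were seen.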

Additional observations from a re-analysis of the deposited data

Results flagged for a closer look

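A probe set annotated to both Hoxd4 and Hoxd3 was outside the counts of the report and gave signals above the receptor level on every array. It read 498, 440 and 381 in replicates 1, 2 and 3, a mean distance of 1.44 log2 units (SD 0.39, n = 3), and which of the pair it reports was not tested. A second probe set of the same pair read 20.9, 5.40 and 24.9 (-3.52), and a probe set shared by Hoxb8 and Hoxb7 read 91.7, 78.0 and 124 (-0.75), both below the level on every array.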

How the results depend on the processing

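No paired analysis was possible because the series holds 1 group. Limits come from the number of arrays and from signals near the receptor level. The count of Hox genes above background was 14 to 23 over the alternatives, against 21, and the 14 genes left with a level from tissue-restricted genes were all among the 21. The d cluster count was 3 of 8 at the 99th percentile and 3 of 8 with the tissue-restricted level, against 5 of 8. The count for groups 12 and 13 was 0 of 5 in those settings, for probe set means and for the lowest probe set. It was 0 to 1 when a replicate was left out. Leaving out the dim genes kept 3 d cluster genes, all above background, and no gene of groups 12 and 13. Every gene kept by that filter was above, so it cannot show a lost call. The count of Hox probe sets was 17 with the tissue-restricted level, against 28.

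Signs turned as follows. With the lowest probe set, Hoxa3 lay at -0.66, Hoxb3 at -0.025, Hoxb4 at -2.99, Hoxc5 at -3.91, Hoxd13 at -4.38, Meis1 at -0.21, Pknox2 at -2.91, Hoxa11os at -3.26, Hoxd3os1 at -3.56, Cbx5 at -0.73 and Lnpk at -2.55. The mean over probe sets put Hoxb4 at -1.27, Hoxd13 at -1.80 and Hoxa11os at -0.62. With the tissue-restricted level, Hoxb4 lay at -0.62, Hoxd3 at -0.094, Hoxd11 at -0.81, Hoxd13 at -0.28 and Evx2 at -1.04. At the 99th percentile Hoxb4 lay at -0.040, Hoxd11 at -0.23 and Evx2 at -0.46, and at the 90th Pknox1 lay at 0.11. Leaving out a replicate gave -0.86 to 0.053 for Hoxb9, -0.57 to 0.63 for Pknox1 and -0.062 to 0.12 for Evx2. A stricter level or dimmer probe set lowers distances by construction; the cause was not tested otherwise. Median centring cannot change a distance, since each array has its own level. A batch block was not run, since the labels give no batch.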
